A study of Homo sapiens with 18 samples.

Results

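The change in RNA between 12 and 24 h of Wnt3a was described in wild-type (WT) H1 cells. H1 is a long-established line of human embryonic stem cells. It was taken from 2 of the 18 samples of the series, the 12 h and the 24 h library of the first WT series, over all 10975 genes of its deposited table. Both libraries came from cells grown in E8 medium with 1 nM Wnt3a, and the untreated 0 h library of that series is described in the study's supplement as cells kept for 48 h in Wnt storage buffer. The other RNA samples are a second WT series (WT Rep. 2) and dZF1 and dZF2, each a single CRISPR clone of H1 cells from which sequence coding for the SP5 zinc fingers was deleted, all at 0, 12, 24 and 48 h with the same treatment. SP5 ChIP-Seq peak lists are given under the labels of an untreated and a 24 h Wnt3a sample. Both name the same ChIP library in their headers and differ in the control library.

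Each time has 1 library in each series, so the step carries no test, no p-value and no replicate spread. Values are RPKM (reads scaled by gene length and by the mapped reads of a library). The change of a gene is log2 of (RPKM at 24 h + 1) over (RPKM at 12 h + 1), so that a value of 1 is 2-fold on the RPKM + 1 scale, and this scale understates the change of genes with low RPKM. A gene listed at 0 gets no ratio of RPKM, because genes used by every cell, such as RPS27, are also listed at 0.

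Wnt3a is a secreted ligand that stabilizes β-catenin, which acts with TCF/LEF factors on target genes. In pluripotent cells WNT signalling works together with NODAL, a TGF-β family ligand that signals through SMAD2 and SMAD3. The pair directs cells through a mesendodermal state like that of the primitive streak, marked by the T-box factors T and EOMES and the homeobox factors MIXL1 and GSC. Definitive endoderm, marked by FOXA2, SOX17 and CXCR4, and mesoderm arise from this state.

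From 12 to 24 h, 171 genes were at least 2-fold higher (1.56% of the 10975) and 85 were at least 2-fold lower (0.774%). The median change of all genes was 0.00, the median size of a change was 0.17, and 91.7% of the genes stayed within 1.5-fold. Among the genes higher at 24 h were regulators of mesendoderm and anterior endoderm, NODAL with its inhibitors LEFTY1 and LEFTY2, and secreted WNT inhibitors and FGF ligands. Of the genes higher, 26 passed 4-fold, against 10 of the genes lower. For comparison, the step from 0 to 12 h had 134 genes higher (1.22%) and 81 lower (0.738%), and the step from 24 to 48 h had 254 higher (2.31%) and 181 lower (1.65%). These neighbouring steps each share a library with the step from 12 to 24 h.

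The genes past 2-fold were mostly low in the untreated library. The genes higher had a median of 2.4 RPKM at 12 h and 9.4 RPKM at 24 h, and the genes lower a median of 5.5 RPKM at 12 h and 1.6 RPKM at 24 h. At 24 h 79 of the genes higher reached 10 RPKM, whereas 16 of the genes lower had been at 10 RPKM or more at 12 h. These levels come from the libraries that called the genes. Split by RPKM in the 0 h library, which is outside the step, the 3064 genes below 8 RPKM held 143 genes higher and 65 lower, and the 7911 genes at 8 RPKM or more held 28 higher and 20 lower. This split was added after the data were seen, and a gene low at 0 h is in the table because it reached 4 RPKM in some library. By mean RPKM over the 4 libraries of the first WT series, the 95th percentile of the size of changes of all genes was 1.46 below 4 RPKM and 0.44 at 64 RPKM or more. In all, 53 genes were listed at 0 in either library, among them 16 of the genes higher at 12 h and 14 of the genes lower at 24 h.

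**Figure D1:**
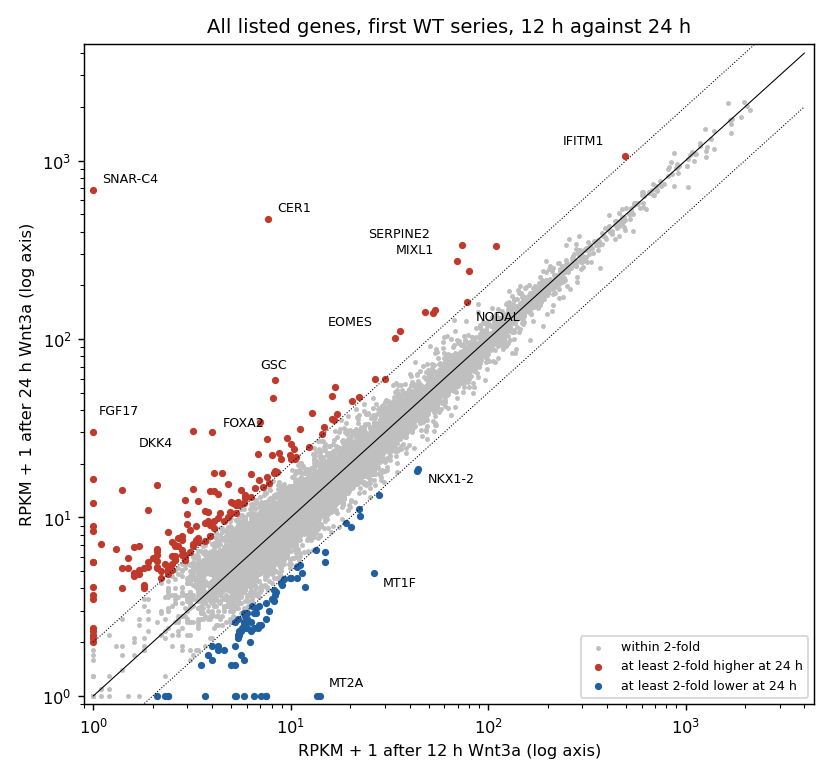
RPKM + 1 of all 10975 listed genes after 12 h (x axis) and 24 h (y axis) of Wnt3a, both on log axes, 1 library each. Red points are the 171 genes at least 2-fold higher, blue points the 85 genes at least 2-fold lower, the solid line marks equal values and the dotted lines 2-fold. Above about 50 RPKM only red points lie outside the dotted lines, and CER1 and SNAR-C4 stand furthest from the diagonal.

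Regulators of the primitive streak and mesendoderm held more genes higher than lower. Of 30 genes on this list 21 were listed, 6 were at least 2-fold higher and 2 at least 2-fold lower, and the median change was 0.55. GSC, the homeobox factor of the organizer, was listed at 0.5, 7.3, 57.8 and 27.2 RPKM at 0, 12, 24 and 48 h. Its value at 24 h was 7.92 times that at 12 h. MIXL1 (chromosome 1, 226411319 to 226414761, hg19) went from 68.6 to 271.1 RPKM, a ratio of 3.95, and stood at 0.0 RPKM at 0 h and 76.4 RPKM at 48 h. The 24 h library was thus the highest of the 4 for both genes. T, also called Brachyury, had 5.8 RPKM at 12 h and 21.7 RPKM at 24 h, with 0.2 RPKM before treatment and 10.1 RPKM at 48 h. EOMES had 34.8 RPKM at 12 h, 109.3 RPKM at 24 h and 139.8 RPKM at 48 h, so it did not turn down like T. LHX1, a LIM homeobox factor, was low at both ends of the step, with 0.3 and 5.7 RPKM, and reached 93.7 RPKM at 48 h. CDX4, the sixth gene past 2-fold, had 1.4 and 4.2 RPKM.

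The genes lower on this list were NKX1-2 and MESP1. NKX1-2, a homeobox gene, had 20.2 RPKM at 0 h, 43.3 RPKM at 12 h, 17.7 RPKM at 24 h and 19.9 RPKM at 48 h, so its 12 h library was the highest of the 4. MESP1, a factor of early mesoderm, had 1.4 RPKM at 12 h and was listed at 0 at 24 h, and was at 4.8 RPKM at 48 h. TBX6 was at 2.0 and 1.7 RPKM, and EVX1 was at 0.5 RPKM and then listed at 0.

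Genes of definitive endoderm differed widely in their change, from 5.92 for CER1 to -0.82 for SHISA2. Of 25 genes on this list 20 were listed, 7 were at least 2-fold higher, 0 were at least 2-fold lower, and the median change was 0.46. CER1, a secreted inhibitor of NODAL, BMP and WNT ligands (chromosome 9, 14719722 to 14722731, hg19), had 1.8 RPKM at 0 h, 6.7 RPKM at 12 h, 466.7 RPKM at 24 h and 634.0 RPKM at 48 h. The ratio of 24 h to 12 h was 69.7, the largest of any gene above 0 in both libraries. FOXA2, a forkhead factor of endoderm, went from 3.0 to 29.1 RPKM, and GATA6, a zinc finger factor of endoderm, from 0.1 to 6.1 RPKM. HHEX, a homeobox factor of anterior endoderm, had 0.9 and 4.3 RPKM, and CYP26A1, an enzyme that breaks down retinoic acid, had 1.4 and 7.3 RPKM. GATA4 was listed at 0 at 12 h and had 1.4 RPKM at 24 h. Other members were present at both times and changed little, such as FZD5, a frizzled receptor, with 32.4 and 37.7 RPKM, and KIT, a receptor tyrosine kinase, with 10.7 and 10.6 RPKM.

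SOX17 and CXCR4, markers by which definitive endoderm is usually recognized, did not pass 2-fold on this scale. SOX17 was listed at 0 at 0 and 12 h, had 0.6 RPKM at 24 h and reached 89.6 RPKM at 48 h, and with a pseudocount of 0.1 it would pass 2-fold. CXCR4 had 3.1, 2.4, 2.8 and 86.0 RPKM at 0, 12, 24 and 48 h. At 24 h both were therefore far below FOXA2 and CER1 on the same scale. SHISA2, an inhibitor of WNT and FGF receptors, was the lowest of the list by change, with 13.1 RPKM at 12 h and 7.0 RPKM at 24 h.

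In the NODAL pathway the ligands NODAL and GDF3 and the inhibitors LEFTY1, LEFTY2 and CER1 were at least 2-fold higher, while the listed receptors were near their 12 h values. Of 28 genes on this list 21 were listed, 6 were at least 2-fold higher, 0 were at least 2-fold lower, and the median change was 0.28. NODAL itself had 4.3, 77.1, 159.2 and 56.9 RPKM at 0, 12, 24 and 48 h. GDF3, a ligand related to NODAL, had 11.6, 51.8, 138.5 and 81.9 RPKM at the same times. Both ligands thus stood highest in the 24 h library, whereas INHBE, an activin subunit, had 8.0 and 7.8 RPKM at 12 and 24 h. LEFTY2 had 11.8 RPKM at 12 h and 37.5 RPKM at 24 h, and LEFTY1 had 15.1 and 34.5 RPKM. The LEFTY genes code for inhibitors of NODAL signalling, lie 28719 bases apart by their start sites on chromosome 1, and are similar enough in sequence that reads may have been split between them. TDGF1, the NODAL co-receptor, had 205.7 and 215.7 RPKM, and the receptors ACVR1B and ACVR2B had changes of 0.04 each. SMAD2, SMAD3 and SMAD4, which carry the signal, had changes of 0.09, -0.20 and -0.22, and the inhibitory SMAD7 went from 21.2 to 12.8 RPKM, a change of -0.69, the lowest on the list.

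Feedback genes of the WNT pathway moved in both directions. Of 29 feedback inhibitors and direct targets 20 were listed, 4 were at least 2-fold higher, 0 were at least 2-fold lower, and the median change was 0.27. DKK4 had 2.2 RPKM at 12 h and 29.6 RPKM at 24 h, and DKK1 had 1.1 and 14.3 RPKM. Both code for secreted inhibitors that bind the LRP5 and LRP6 co-receptors. APCDD1, a membrane inhibitor of WNT receptors, had 7.9 and 20.2 RPKM, and WLS, which escorts WNT ligands out of the cell, had 4.6 and 13.2 RPKM. AXIN2, a component of the β-catenin destruction complex, was at 15.5 RPKM at 0 h, 24.4 RPKM at 12 h and 23.8 RPKM at 24 h, so its 12 and 24 h values lay close together. NKD1, another intracellular inhibitor, had 3.0 and 4.5 RPKM. The secreted inhibitor SFRP1 went from 188.9 to 117.2 RPKM, a change of -0.68, and TLE1, a co-repressor of TCF factors, from 29.6 to 17.5 RPKM, a change of -0.73. SP5 had 49.8 RPKM at 12 h and 90.5 RPKM at 24 h, a change of 0.85, and 17 listed SP and KLF factors held 0 genes past 2-fold in either direction.

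WNT ligands and receptors each held 1 gene past 2-fold. WNT3 had 1.4, 8.6, 26.8 and 31.4 RPKM at 0, 12, 24 and 48 h, against a median change of 0.05 over the 12 listed ligands and intracellular components. CTNNB1, which codes for β-catenin, had 195.4 and 200.9 RPKM. Among the 15 listed receptors, with a median change of -0.05, ROR2 went from 3.8 to 14.5 RPKM. FZD7, the frizzled receptor with the highest RPKM at 12 h of those listed, had 91.1 and 75.5 RPKM.

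FGF ligands were found among both the genes higher and the genes lower. FGF17 was listed at 0 at 0 and 12 h and had 29.3 RPKM at 24 h and 142.3 RPKM at 48 h. FGF4 had 1.8, 0.4, 13.3 and 2.3 RPKM at the 4 times, and FGF8 had 0.7, 9.0, 20.2 and 14.2 RPKM. FGF18 was lower, with 4.8 RPKM at 12 h and 1.5 RPKM at 24 h. Of 33 genes of the FGF list 27 were listed, 3 were at least 2-fold higher and 1 at least 2-fold lower, and the median change was 0.00. DUSP6, a phosphatase induced by FGF signalling, went from 136.1 to 83.0 RPKM, a change of -0.71. BMP2 was at 1.4 and 3.8 RPKM, the 1 gene at 2-fold among 18 listed BMP genes with a median change of 0.15.

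**Figure D2:**
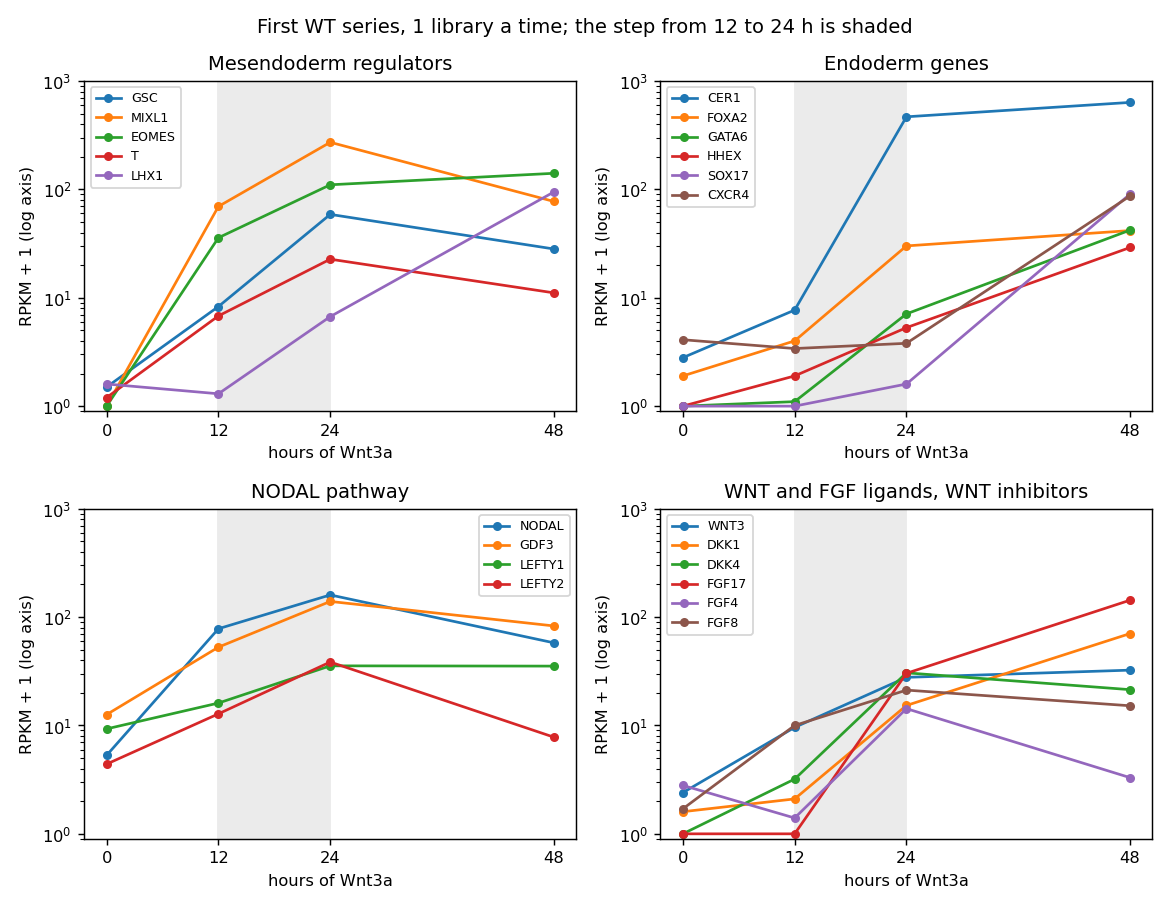
RPKM + 1 (log axis) against hours of Wnt3a in the first WT series for genes of 4 groups, with each point from 1 library and the step from 12 to 24 h shaded. GSC, MIXL1, T, NODAL, GDF3 and LEFTY2 were highest at 24 h, CER1 went from 6.7 to 466.7 RPKM within the shaded step, and SOX17 and CXCR4 stayed below 3 RPKM at 24 h.

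Pluripotency factors had a median change below 0. Of 34 genes on this list 30 were listed, 1 was at least 2-fold higher and 0 at least 2-fold lower, 21 had a change below 0, and the median change was -0.19. POU5F1 had 323.7 RPKM at 12 h and a change of -0.11, and LIN28A, an RNA-binding protein, had 1018.0 and 934.7 RPKM. DPPA4 had 331.4 and 269.7 RPKM, and SOX2 had 238.3, 212.8, 153.4 and 105.5 RPKM at 0, 12, 24 and 48 h. Both libraries thus held high values of these markers of pluripotent cells. NANOG was low in this table, with 3.1 and 5.9 RPKM. PODXL, a sialomucin, was furthest below 0 in this list, from 162.9 to 97.8 RPKM, a change of -0.73. GDF3, counted above with the NODAL ligands, was the member past 2-fold. Of 30 genes that the study itself discusses 28 were listed, 13 were at least 2-fold higher and 0 at least 2-fold lower, with a median change of 0.80. The study chose many of them on these samples, so that count is no independent evidence of a direction.

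Markers of other cell types were few among the listed genes. Of 23 markers of amnion and trophectoderm 2 were listed, with summed values of 2.3 RPKM at 12 h and 4.0 RPKM at 24 h. Of 30 mesoderm markers 9 were listed, with sums of 59.1 and 62.9 RPKM. APLNR, a receptor of early mesoderm, had 1.9 and 11.5 RPKM, MESP1 was the mesoderm marker past 2-fold in the other direction, and the median change of this list was -0.15. Of 15 neural crest markers 7 were listed, with sums of 158.0 and 176.2 RPKM, and of 13 fibroblast markers 6 were listed, with sums of 243.4 and 241.5 RPKM. Neither of these lists held a gene past 2-fold. In the neural and anterior epiblast list 13 of 40 genes were listed and 2 were at least 2-fold higher. These were MEIS3, a homeobox factor with 6.6 and 15.8 RPKM, and CDH2, which codes for N-cadherin, with 19.5 and 44.2 RPKM. Of the 13 genes 8 had a change above 0 and 5 a change below 0, and the median change was 0.10. None was at least 2-fold lower, and the lowest change was -0.64 for IRX2. In these bulk samples a change in the number of cells of a type and a change of RNA per cell cannot be told apart.

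Lists of growth and metabolism had medians close to no change. Among 41 listed genes of DNA replication the changes ran from -0.31 to 0.36, and among 39 mitosis genes from -0.24 to 0.37. None of these 80 genes passed 2-fold. The same held for 80 nuclear genes of oxidative phosphorylation, with a median of -0.0046, for 48 chromatin and DNA methylation enzymes, with a median of -0.02, for 25 glycolysis enzymes, with a median of 0.05, and for 22 genes of the YAP/TEAD pathway. Of all genes at 8 RPKM or more at 0 h, 0.354% were higher and 0.253% lower. Counts of 0 in lists of this size are near these shares and do not set the lists apart. Of 77 listed cytosolic ribosomal protein genes RPS27 alone passed 2-fold. It had 6.5 RPKM at 12 h and was listed at 0 at 24 and 48 h. The summed RPKM of the 77 genes was 34276 at 12 h and 32858 at 24 h, a difference of -4.14%. HOX genes and replication-dependent histone genes had 0 listed members.

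Several further lists held 1 or 2 genes past 2-fold. HES1, a target of NOTCH signalling with 21.3 and 46.6 RPKM, was the member past 2-fold among 16 listed genes of the NOTCH and Hedgehog pathways. CDH2 was the member among 26 cadherins and genes of the epithelial-mesenchymal transition, and IER3, a stress-response gene with 32.8 and 100.2 RPKM, among 31 immediate early genes. COL6A1, with 8.9 and 21.4 RPKM, and COL13A1, with 1.4 and 4.0 RPKM, were the members among 29 collagens, laminins and integrins. GADD45G was the member among 26 cell cycle inhibitors and p53 targets, and CDKN1A on that list had 27.9 and 20.8 RPKM. Of 160 solute carriers SLC10A3 was at least 2-fold higher and SLC9A3R2 at least 2-fold lower. The 16 listed genes of the hypoxia response held 0 past 2-fold. No list was tested, and the counts of every list are to be read beside the 1.56% of all genes higher and 0.774% lower. These shares depend on the level of a gene. Below 8 RPKM at 0 h 4.67% of genes were higher and 2.12% lower, and at 8 RPKM or more 0.354% and 0.253%.

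**Figure D3:**
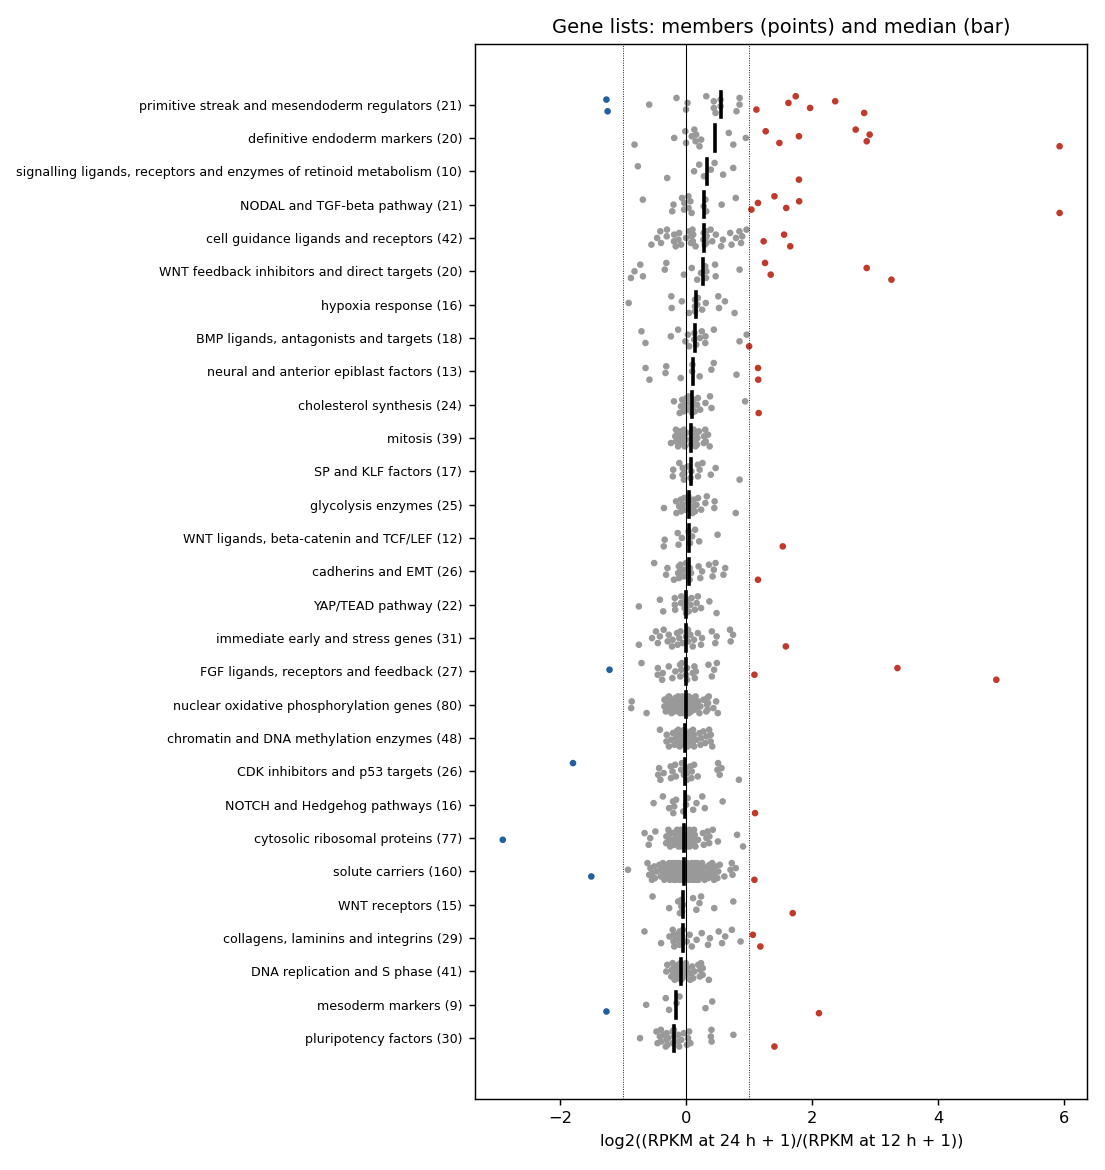
Change from 12 to 24 h, log2 of the ratio of RPKM + 1, for each listed gene (point) of 29 gene lists with at least 9 listed members, with the number of genes in parentheses and the median as a bar. The lists of mesendoderm regulators, definitive endoderm and the NODAL pathway have points beyond 1 (red) and medians above 0. So do other lists, among them retinoid metabolism, cell guidance and WNT feedback, with medians of 0.34, 0.28 and 0.27. The lists of DNA replication, mitosis and chromatin enzymes lie in a narrow band around 0.

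Of the 10 largest gains in RPKM, 7 were of genes past 2-fold and 3 of abundant genes that changed little in proportion. SERPINE2, a secreted protease inhibitor, had 72.8 RPKM at 12 h and 333.9 RPKM at 24 h, and IFITM1, an interferon-inducible membrane protein, had 490.2 and 1056.3 RPKM. GAL, which codes for the neuropeptide galanin, had 109.3 and 330.6 RPKM, and VAMP8, a membrane fusion protein, had 78.9 and 238.7 RPKM. All 4 passed 2-fold at high levels, as did CER1, MIXL1 and SNAR-C4 among these 10. TMSB10, a small actin-binding protein, gained 465.4 RPKM and the cytoplasmic actin gene ACTG1 gained 246.0 RPKM, but their changes were 0.36 and 0.26. RPLP1 gained 232.6 RPKM with a change of 0.34. The largest loss was that of CD24, a cell surface glycoprotein, from 1025.5 to 707.6 RPKM, a change of -0.53. The other 9 of the 10 largest losses were 7 ribosomal protein genes, NDUFS5 and the small RNA host gene SNHG8, with changes from -0.12 for RPL27 to -0.57 for RPS13.

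SNAR-C4 had the largest gain in the table and was listed at 0 at 0, 12 and 48 h, with 684.1 RPKM at 24 h. It belongs to a family of short noncoding RNAs with near-identical copies, so reads could have been assigned to any of them. The other listed short RNA, TERC, the RNA component of telomerase, had 686.1 and 739.2 RPKM. Among the 12 largest changes upward were also FGF17, TGIF2-C20ORF24, the joint entry MUTED,MUTED-TXNDC5, LOC100131289 and a Y-chromosome gene, all listed at 0 at 12 h. Of all genes past 2-fold, 10 had a symbol that joins neighbouring genes and 24 had a LOC symbol. Joined entries share exons with the single genes and are uncertain.

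Genes listed at 0 in 1 of the 2 libraries stood among the largest changes downward too. Of the 12 furthest, 10 were listed at 0 at 24 h: MT2A, GJA9-MYCBP, RPS27, ZACN, LOC100133957, C6orf52, ZNF670-ZNF695, LOC728739, ST20-MTHFS and TMEM88. Their 12 h values ran from 2.7 RPKM for TMEM88 to 13.0 RPKM for MT2A. The 2 above 0 were MT1F, with 25.4 RPKM at 12 h and 3.9 RPKM at 24 h, and the protease gene KLK8, with 4.8 and 0.6 RPKM. Metallothioneins, small proteins that bind zinc and copper, form a family that was looked at after these values were seen. All 5 listed members were lower at 24 h and 3 passed 2-fold, with MT1G at 26.9 and 12.3 RPKM, MT1H at 24.3 and 14.7 RPKM and MT1X at 142.7 and 132.1 RPKM. These genes lie in 1 cluster on chromosome 16 and are alike in sequence. GADD45G, a stress-response gene, had 4.2 and 0.5 RPKM. SNURF, also named after its values were seen, had 42.8 and 17.1 RPKM and with NKX1-2 made up the 2 genes lower that started above 40 RPKM.

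The second table of the study gives an independent set of libraries for the same step, though for fewer genes. It holds 497 genes that the study chose for their response in the first WT series, which is therefore no independent evidence of their direction. Values of WT Rep. 2 are fractions of each gene's own maximum in that series, and those of dZF1 and dZF2 are ratios to the same maximum. Changes were computed on these values with 0.05 added. Of the genes at least 2-fold higher in the first WT series 79 have values there, and of the genes lower 8. In WT Rep. 2 the 79 genes had a median change of 0.35, with 59 above 0, 16 below 0 and 14 at least 2-fold higher. Genes named above were among those below 0. DKK1 and LHX1 went from 0.02 to 0.00, DKK4 from 0.01 to 0.00, ROR2 from 0.48 to 0.43 and FGF4 from 1.00 to 0.69. GATA6, HHEX and FGF17 were at 0.00 at both 12 and 24 h, so their rise was not seen at this step in WT Rep. 2. Over all 497 genes of that series the median was 0.02, 23 genes (4.63%) were at least 2-fold higher and 10 (2.01%) at least 2-fold lower. In dZF1 the 79 genes had a median change of 1.05 and 77 were above 0, with 41 at least 2-fold higher, against 71 (14.3%) higher and 7 (1.41%) lower among all 497. In dZF2 the median was 1.68 and 74 were above 0, with 57 at least 2-fold higher, against 112 (22.5%) higher and 16 (3.22%) lower.

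The same genes in WT Rep. 2 had their larger change later. From 24 to 48 h, a step added after the data were seen, the 79 genes had a median change of 1.505 in WT Rep. 2 and 58 were at least 2-fold higher, while all 497 had a median of 0.51. In dZF1 the median of the 79 genes from 24 to 48 h was 1.09 and in dZF2 it was 0.77. CER1 was at 0.00, 0.00, 0.02 and 1.00 of its maximum at 0, 12, 24 and 48 h in WT Rep. 2, at 0.00, 0.00, 0.17 and 1.44 in dZF1 and at 0.00, 0.00, 0.38 and 1.33 in dZF2. MIXL1 was at 0.00, 0.08 and 1.00 at 12, 24 and 48 h in WT Rep. 2, and at 0.17, 0.71 and 1.22 in dZF1. In dZF2 it was at 0.18 at 12 h and 3.27 at 24 h, its highest value there. In WT Rep. 2 both genes were thus near the bottom of their range at 24 h. NODAL was at 0.09, 0.32 and 1.00 at these times in WT Rep. 2, at 0.29, 1.46 and 1.43 in dZF1 and at 0.74, 3.06 and 1.64 in dZF2. The first WT series, in contrast, had its highest MIXL1 and NODAL values at 24 h. With 1 library at each time the part of the genotype, the culture and the library in these differences cannot be told apart.

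Of all 497 genes, 10 were at least 2-fold higher from 12 to 24 h in every one of the 3 other series, and all 10 were among the 79. They were GSC, MIXL1, NODAL, GDF3, LEFTY1, LEFTY2, WLS, APLNR, FAM159B and C15orf2. In WT Rep. 2 some of these calls lay near the floor. GSC, MIXL1 and APLNR went from 0.00 to 0.10, 0.08 and 0.09 of their maximum, where the added 0.05 weighs heavily. FAM159B was there at 0.45 at 0 h, 0.07 at 12 h and 0.39 at 24 h, so it did not pass its 0 h value. Genes above 0 in all 3 other series made up 69.6% of the 79 and 31.2% of the 497. Genes at least 2-fold higher in both clones made up 44.3% of the 79 and 9.46% of the 497. The 8 genes lower had a median change of -0.11 in WT Rep. 2. Their medians in the clones were -0.54 for dZF1 and -0.43 for dZF2, and 7 of the 8 were below 0 in each clone. NKX1-2, 1 of these 8, was at 0.82 and 1.00 at 12 and 24 h in WT Rep. 2, at 1.18 and 0.70 in dZF1 and at 1.24 and 0.50 in dZF2.

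**Figure D4:**
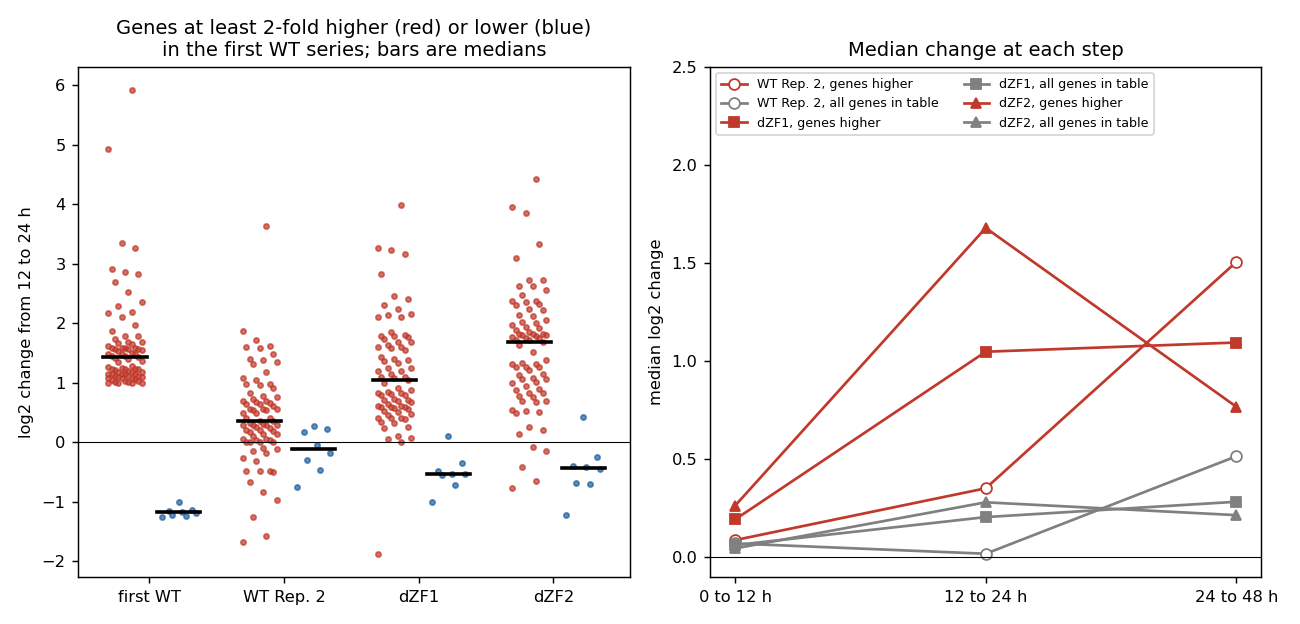
Left, log2 change from 12 to 24 h of the 79 genes higher (red) and 8 genes lower (blue) of the first WT series in each of 4 series, with medians as bars; the first WT values chose the genes. Right, median log2 change at each step for the 79 genes (red) and all 497 genes (grey), where WT Rep. 2 has its largest median, 1.505, from 24 to 48 h and dZF2 has its largest, 1.68, from 12 to 24 h.

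The share of the genes higher near an SP5 peak differed with the peak list. Start sites from the GENCODE annotation of hg19 were matched for 160 of the 171 genes higher, 81 of the 85 genes lower and 10793 of all listed genes. In the list for Wnt3a-treated cells, with 540 peaks, 3 of the 160 genes higher had a summit within 10000 bases of a start site, a share of 1.88% (95% Wilson interval 0.640% to 5.37%). For the genes lower it was 1 of 81, or 1.23% (0.218% to 6.67%), and over all listed genes 236 of 10793, or 2.19%. Neither share was tested against the share over all genes. The 3 genes were MIXL1, WNT3 and HES1, a transcriptional repressor, and the gene lower was CRYM, which codes for a thyroid hormone binding protein. The peak at MIXL1 had 95 tags, a 24.4-fold enrichment and a false discovery rate of 0.0%. The peaks at WNT3 and HES1 had false discovery rates of 41.5% and 27.8%.

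With the list labelled for the untreated sample the share of the genes higher was 5.62% (9 of 160, interval 2.99% to 10.3%), against 1.96% of all listed genes. Within 50000 bases it was 16 of 160 (6.25% to 15.6%), against 4.79%. The share of the genes higher thus depends on the list. It was not tested against the share over all genes, and genes that share a peak are not independent. Both lists name the same ChIP library in their headers and differ in the control library, so they are not separate measurements of SP5, and the headers name H9 cells where the sample labels give H1. Among the 9 genes within 10000 bases were GSC, NODAL, WLS and FGF17, at peaks with false discovery rates of 65.4%, 46.0%, 70.5% and 70.5%. VAMP5 and VAMP8 shared 1 peak. At a false discovery rate of at most 5%, a limit chosen after seeing the data, 1 of the 160 genes higher (0.625%) had a peak within 10000 bases. That gene was MIXL1 in both lists. Over all listed genes it was 32 of 10793 (0.2965%) in the list for Wnt3a-treated cells and 19 of 10793 (0.176%) in the other. Of the genes lower it was 1 of 81 and 0 of 81.

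The values of the peak at CRYM changed with the control library. It had 42 tags in both lists. In the list for Wnt3a-treated cells it had a 12.4-fold enrichment and a false discovery rate of 0.0%. In the list labelled for the untreated sample it had a 6.56-fold enrichment and a false discovery rate of 64.5%.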

How the data were processed

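RNA-Seq was measured in H1 cells with 1 library for each series and time, and samples were grouped by their labels. The authors depleted ribosomal RNA, mapped the reads with TopHat to the hg19 genome and obtained RPKM from Cuffdiff. The versions of both and the annotation are not given in the sources used here. The submitters' processing notes name Bowtie 0.12.7, SAMtools 0.1.12a and MACS 1.4.2. The authors deposited RPKM of the first WT series rounded to 1 decimal, for 10975 genes with at least 4 RPKM in any library. A second table by the authors covers 497 genes. In it each WT Rep. 2 value is a fraction of the gene's highest value in that series, as the authors deposited it, and dZF1 and dZF2 values are a ratio to the same maximum. No counts were used, so the depth is unknown and RPKM carry no interval. Peaks of SP5 ChIP-Seq carry, as deposited by the authors, a count of tags, a fold enrichment, a false discovery rate in percent and a score that rises as the p-value falls, and come from a library of 18641194 tags.

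Changes were computed with a pseudocount of 1 RPKM, or 0.05 for the fractions, and called at 2-fold. Genes named in the text were the 12 largest changes and 10 largest differences in RPKM each way, the genes the study discusses, and from each list the members past 2-fold (up to 5) with the head of the pathway; other members are named as examples, chosen after their values were seen. The members and lists were chosen with earlier results of these data known. Symbols were matched to GENCODE release v44lift37 for 9619 genes directly and 1174 through older symbols. Wilson intervals cover counting error only. No p-value was computed, since each side has 1 library. Alternatives were other pseudocounts, thresholds, filters, distances and peak lists. Per-sample columns left unused numbered 0. The fold function was tested on simulated data with 12 h values of 4 RPKM or more, so that test did not cover genes starting lower. Python 3.11.15, numpy, pandas, scipy and matplotlib were used. The SP1 experiments were not analysed here, and results for some genes and sequences are not reported here.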

Additional observations from a re-analysis of the deposited data

Results flagged for a closer look

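Genes that were at least 2-fold higher from 12 to 24 h in the first WT series and at least 2-fold lower over the same step in another series were looked for among the 79 genes with values in both tables. Each series has 1 library a time, so these differences were not tested.

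In WT Rep. 2 the change was -1.58 for GAD1, which codes for an enzyme that makes the neurotransmitter GABA, -1.68 for SAMD3 and -1.25 for C1orf97. All 3 had at most 0.26 of their maximum at 12 h in that series and their maximum at 48 h. In dZF1 the change was -1.87 for LOC100506686, from 0.17 to 0.01 of the WT Rep. 2 maximum, and in WT Rep. 2 the same gene went from 0.03 to 0.94.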

How the results depend on the processing

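The counts depended on how low genes were treated. Genes higher numbered 171 and genes lower 85. With a pseudocount of 5 RPKM they numbered 51 and 9, and with one of 0.1 RPKM 256 and 143. At 1.5-fold they numbered 552 and 364, and at 3-fold 53 and 16. A minimum of 4 RPKM at 12 or 24 h left 155 and 73, genes above 0 in both libraries 155 and 71, and centring on the median changed neither count. Leaving out the short noncoding RNA took 1 gene from those higher. For the other series a pseudocount of 0.2 gave a median of the genes higher of 0.215 in WT Rep. 2, where it was 0.35, 0.68 in dZF1 and 1.05 in dZF2. Genes past 1.5-fold gave 0.18, 0.68 and 1.02. Genes with a mean of at least 8 RPKM, a choice made after seeing the data, gave 1.33 in dZF2. The share of genes higher with an SP5 peak was 6.88% within 50000 bases, where it was 5.23% of all listed genes. It was 5.62% with the list labelled for the untreated sample. The median change of the mesendoderm list was 0.81 with a pseudocount of 0.1 and 0.33 with 5, that of the endoderm list 0.19 with 5. In no setting run did a median past 0.2 in size turn its sign. Changes of single genes were rerun with other pseudocounts only, which cannot turn a sign. List medians were rerun with other pseudocounts and with centring on a median of 0.00, so their kept signs say little either. No paired test was run. The 2 WT series stand in separately normalized tables, each series has 1 library a time, and dZF1 and dZF2 are each a clone of its own. Changes within each series were set side by side without a test.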

Other observations

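The IFITM, IFIT and IFI genes, the serine protease inhibitors and the actin and beta-thymosin genes were grouped after their values were seen, so their counts describe these libraries only. Of 11 listed IFITM, IFIT and IFI genes, which are known as interferon-inducible, 4 were at least 2-fold higher from 12 to 24 h in the first WT series. Beside IFITM1, its neighbour IFITM3 went from 194.4 to 271.9 RPKM and IFITM2 from 148.7 to 172.5 RPKM, and reads may be shared among the 3. IFIT2 had 0.4 and 4.2 RPKM, IFI27L1 had 3.5 and 16.7 RPKM, and IFI27 was listed at 0 at 12 h and had 1.0 RPKM at 24 h. Of 9 listed serine protease inhibitors of the SERPIN family 2 were at least 2-fold higher, SERPINE2 and SERPINB9, the latter with 46.7 and 140.9 RPKM. Among 42 listed ligands and receptors of cell guidance 3 were at least 2-fold higher and 0 at least 2-fold lower, with a median change of 0.28. They were FLRT3, with 1.1 and 5.6 RPKM, PLXNA2, with 0.6 and 3.7 RPKM, and NTN1, with 1.6 and 5.1 RPKM. Among 8 listed actin and beta-thymosin genes ACTA1 passed 2-fold, with 0.7 and 5.9 RPKM. In the retinoid list CYP26A1 was the member past 2-fold, and the binding protein CRABP2 went from 60.9 to 103.0 RPKM.

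Among the genes higher with a matched start site, 4 pairs lay within 50000 bases of each other. These were LEFTY2 with LEFTY1, VAMP5 with VAMP8 (6838 bases), IFI27L1 with IFI27 (7929 bases) and AHSP with CSDAP1 (41498 bases). Among the genes lower the pairs were MT2A with MT1F and MT1F with MT1G.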
